A study of Drosophila melanogaster with 6 samples.

Results

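Chitin and its partner proteins line the apical face of insect tubular epithelia, and 8 genes of this matrix were examined in larval brains of Drosophila melanogaster: verm, serp, Gasp, pio, kkv, knk, mmy and obst-A. They are 8 of 17737 genes in the deposited table, matched by gene symbol. Their roles are supply of the chitin precursor (mmy), chitin synthesis (kkv), protection and binding of the fibres (knk, obst-A, Gasp), their deacetylation (verm, serp), and the zona pellucida domain matrix (pio). The set was chosen because verm, serp, Gasp and pio were lower in DNMT3L brains in an earlier reading of the same counts. The differences between the groups are therefore given for these 8 genes as a description, with no p-value.

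Brains of larvae in the third instar were sequenced as RNA in 3 DNMT3L and 3 control libraries. The DNMT3L group came from crossing the driver elavC155-Gal4 to a white-eyed stock with P(UAS-DNMT3L,w+) over the balancer Cyo and with TM2 over TM6B. DNMT3L is a mammalian cofactor of DNA methyltransferases without catalytic activity of its own. The control group carried the driver elavC155-Gal4 alone, a Gal4 insertion at elav that is active in neurons, so that both groups share the driver. Whether larvae carrying the transgene were picked from the cross is not stated in the labels, nor whether replicates were separate animals. Any p-value therefore measures the spread between these libraries.

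In the fly, chitin is a polymer of N-acetylglucosamine that the membrane enzyme Kkv extrudes into the lumen of the tracheae, the air tubes that also enter the brain, and onto the epidermis and foregut. Secreted chitin-binding proteins then order the fibres, and deacetylases trim them, which in the embryo limits tube length. The genes are best known from embryonic tracheae and epidermis, and the counts come from whole brains, so the cells that made these transcripts are not identified. In such bulk samples, fewer cells of a type and less RNA per cell cannot be told apart.

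Total counts were 17928420 to 18399526 in the DNMT3L libraries and 18183491 to 19251845 in the control libraries. A floor of 3 counts corresponds to 0.156 to 0.167 CPM, counts scaled to library size, for counting error only, and each of the 8 genes lay far above it in each library. Neuronal markers (9 genes, among them elav, brp and nSyb) summed to 179 to 359 FPKM in DNMT3L libraries. In control libraries they summed to 28.5 to 153 FPKM. The sums were separate between the groups, with DNMT3L 1 the highest and control 1, at 28.5 FPKM, far below the other controls. Neither these sums nor the log2 fold changes of these markers were corrected for the trend on gene length given below. Of the 9 genes 0 had a negative log2 fold change, and the median was 1.27. In 6 the groups were separate with DNMT3L higher, where all genes gave 14.0%. The edgeR test described below called 0 of the 9, and DESeq2 called 1, as higher (0.915% of all genes). The bearing of this difference on the 8 genes was not tested. Control 1 also held relatively fewer reads of long genes and more of short genes, and DNMT3L 1 the reverse. At an exonic size of 5000 bases the smoothed log2 deviation from the mean of the 6 libraries was 0.50 in DNMT3L 1 and −0.77 in control 1, and between −0.07 and 0.17 in the other 4 libraries. At 1000 bases it was −0.38 in DNMT3L 1 and 0.50 in control 1, and between −0.12 and 0.11 in the other 4 libraries. At 2500 bases, near the size of most of the 8 genes, the deviation was −0.08 in control 1 and at most 0.03 in size in the other libraries.

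Per exonic length, verm was the most abundant of the 8 genes in both groups. Its level averaged 70.2 ± 18.6 FPKM in DNMT3L brains and 116.8 ± 5.03 FPKM in control brains (SD, n = 3 each here and below), above 93.9% of the 13904 genes with any read. A middle group followed in which the library ranges of neighbouring genes overlapped. In it obst-A averaged 45.2 ± 7.30 FPKM in DNMT3L and 50.6 ± 19.5 FPKM in control brains. Gasp averaged 35.6 ± 9.29 FPKM in DNMT3L and 59.1 ± 8.07 FPKM in control brains. The level of pio was 35.4 ± 6.50 FPKM in DNMT3L and 50.9 ± 12.7 FPKM in control brains, and that of serp 32.2 ± 7.50 FPKM in DNMT3L and 53.3 ± 2.28 FPKM in control brains. Below them, mmy averaged 22.8 ± 1.37 FPKM in DNMT3L and 27.4 ± 1.87 FPKM in control brains, and kkv 17.8 ± 3.08 FPKM in DNMT3L and 24.2 ± 1.71 FPKM in control brains. The ranges of mmy and kkv overlapped in control libraries and were separate in DNMT3L libraries. Last came knk, at 6.04 ± 0.590 FPKM in DNMT3L and 7.53 ± 0.344 FPKM in control brains, above 53.5% of genes with a read. Summed over the 8 genes, levels were 264, 309 and 223 FPKM in DNMT3L libraries 1 to 3 and 356, 408 and 406 FPKM in control libraries 1 to 3.

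**Figure D1:**
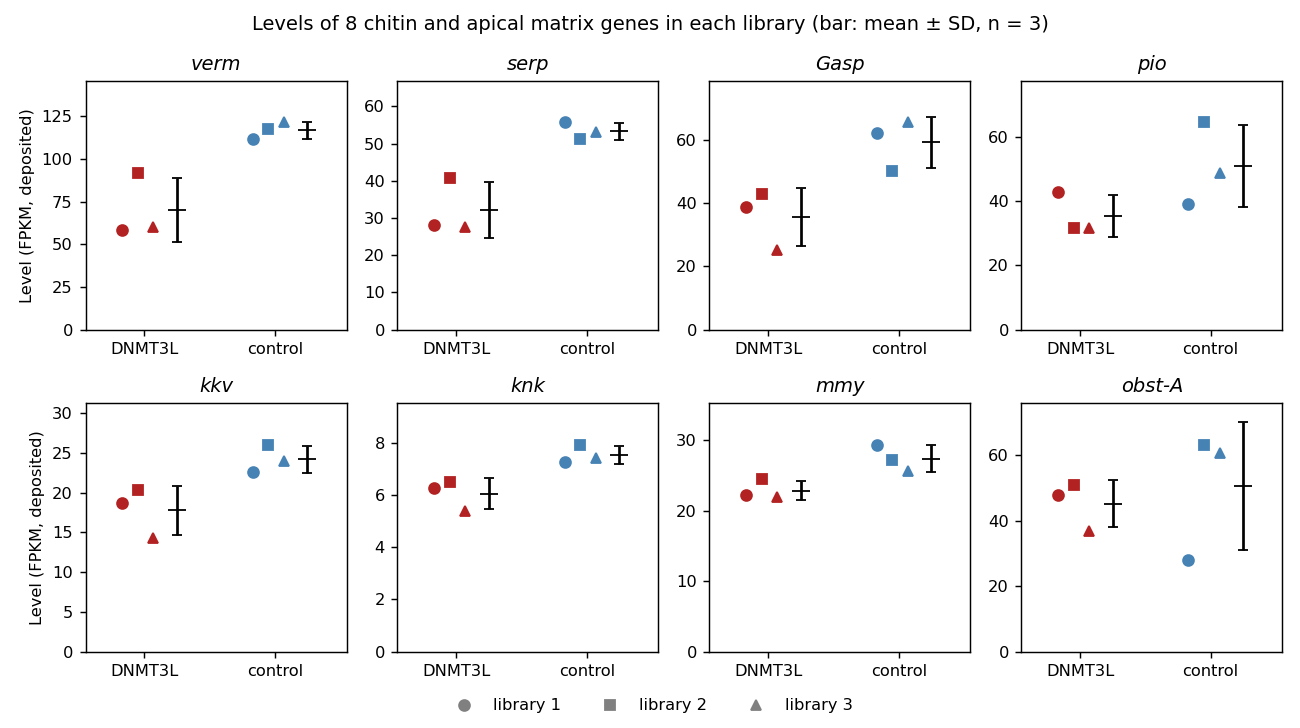
Deposited FPKM of each of the 8 genes (y axis, one scale per gene, starting at 0) in DNMT3L (red) and control (blue) libraries, with the library number as symbol and the mean ± SD (n = 3) as a black bar. DNMT3L libraries lie below control libraries for verm, serp, Gasp, kkv, knk and mmy, while pio and obst-A overlap on this scale because of control 1.

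The deacetylase genes verm (vermiform) and serp (serpentine) encode secreted proteins that bind chitin and remove acetyl groups, and both are needed in the embryo for tracheal tubes of normal length. They are neighbours on the minus strand of chromosome arm 3L in the BDGP6 build, verm at 19690033 to 19695260 and serp at 19700977 to 19708015, with 5716 bases and no whole annotated gene between them. Scaled between libraries by TMM, which corrects for composition, verm was at 132, 205 and 133 CPM in DNMT3L libraries 1 to 3 and at 308, 274 and 299 CPM in control libraries 1 to 3. The groups did not overlap, and DNMT3L 2 was the highest of its group. The log2 fold change was −0.91 ± 0.21 (SE of the edgeR fit), a level 0.533 times that of control. For serp the values were 68.0, 98.4 and 65.4 CPM in DNMT3L libraries and 165, 128 and 140 CPM in control libraries, with a log2 fold change of −0.90 ± 0.21. Again the groups were separate, with DNMT3L 2 nearest to the control libraries. Without DNMT3L 2 the log2 fold changes were −1.15 for verm and −1.11 for serp.

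The pair kept a nearly fixed proportion. The ratio of verm to serp FPKM was 2.08, 2.24 and 2.18 in DNMT3L libraries and 2.0, 2.30 and 2.29 in control libraries. Its coefficient of variation over the 6 libraries was 5.42%, the lowest of the 28 ratios between pairs of the 8 genes. Next were kkv to knk at 7.21% and knk to mmy at 7.66%. By contrast, the ratio of Gasp to obst-A, both of the Obstructor family, was 0.811, 0.842 and 0.679 in DNMT3L libraries and 2.20, 0.792 and 1.08 in control libraries. These ratios are free of the scaling between libraries, and no test was made on them.

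Gasp, a chitin-binding protein of the Obstructor family that is secreted into the tracheal lumen, lies on the minus strand of 3R at 6088799 to 6100887. It was at 87.2, 95.4 and 54.9 CPM in DNMT3L libraries and at 170, 116 and 160 CPM in control libraries. The groups did not overlap, DNMT3L 3 was the lowest library and control 2 the lowest control. The log2 fold change was −0.91 ± 0.26 (SE), and −0.70 without DNMT3L 3. Its relative obst-A, which binds chitin and organises the cuticle's assembly zone in larval epidermis, lies on X at 20239855 to 20243209 on the plus strand. Its values were 87.0, 91.6 and 65.4 CPM in DNMT3L libraries and 62.5, 119 and 120 CPM in control libraries. Here the groups overlapped, since control 1 was lower than each DNMT3L library while controls 2 and 3 were higher than each. The log2 fold change of −0.30 ± 0.28 was −0.09 by limma on log2(FPKM + 1), −0.55 without control 1, −0.17 without control 2, −0.16 without control 3 and −0.17 without DNMT3L 3.

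The gene pio (piopio) encodes a zona pellucida domain protein that anchors the apical surface to the luminal matrix and is required for tracheal branches to stay connected. It lies on 2R at 24581245 to 24597862 on the plus strand. It was at 147, 108 and 106 CPM in DNMT3L libraries and at 165, 228 and 183 CPM in control libraries. The groups were separate by a narrow gap between DNMT3L 1 and control 1, and on the deposited FPKM scale those 2 libraries were in the other order, at 42.9 FPKM in DNMT3L 1 and 39.2 FPKM in control 1. The log2 fold change was −0.68 ± 0.20 (SE). Without both libraries numbered 1 it was −0.95, and with each library's trend on gene length removed −0.93. Unlike the other members, pio was highest in DNMT3L 1 within its group.

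**Figure D2:**
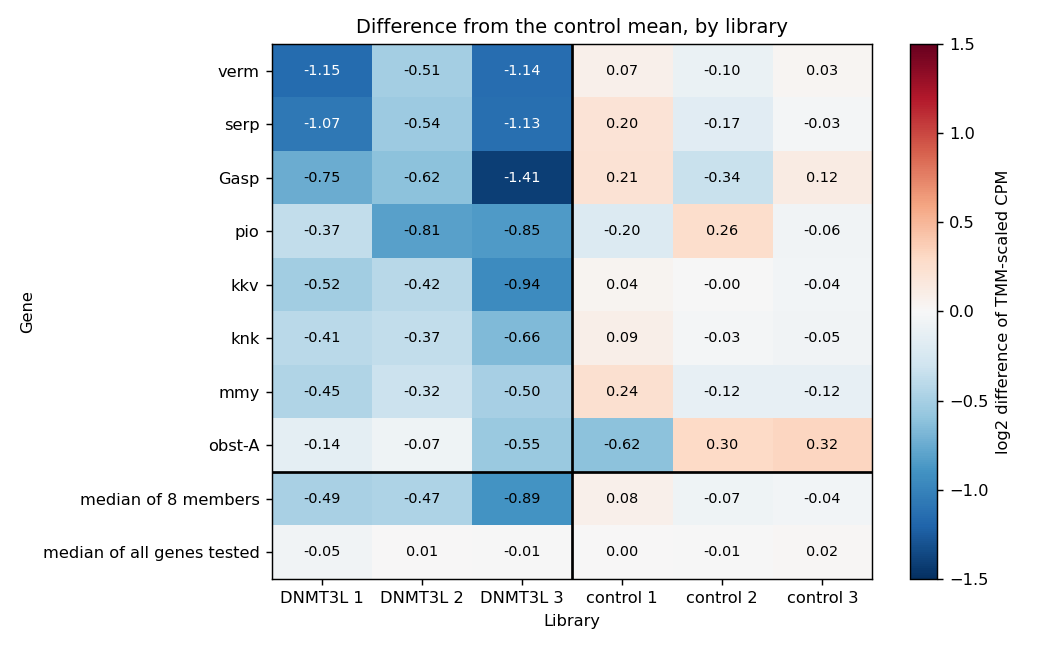
Log2 difference of TMM-scaled CPM from the control mean (colour and printed numbers) for each of the 8 genes, their median and the median of all genes tested (rows) in each library (columns). The median of the 8 genes is −0.49, −0.47 and −0.89 in DNMT3L libraries 1 to 3, while the median of all genes stays between −0.05 and 0.02.

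The genes of chitin synthesis, precursor supply and fibre protection follow. The chitin synthase gene kkv (krotzkopf verkehrt, 3R, 5378093 to 5392866, minus strand) was at 102, 110 and 76.0 CPM in DNMT3L libraries and at 151, 146 and 142 CPM in control libraries. The groups did not overlap and the control values lay close together. The log2 fold change was −0.61 ± 0.17 (SE). With an exonic size of 5701 bases kkv is the longest of the 8, and with the length trend removed its log2 fold change was −1.21, so its size depends on that choice. The gene mmy (mummy, 2L, 6468538 to 6473904, minus strand) encodes the pyrophosphorylase that makes UDP-N-acetylglucosamine, the substrate of Kkv and of protein glycosylation. It was at 46.3, 50.7 and 44.8 CPM in DNMT3L libraries and at 75.2, 58.6 and 58.4 CPM in control libraries, separate but with control 1 above the rest. The log2 fold change of mmy was −0.44 ± 0.16 (SE), and −0.31 without control 1. The gene knk (knickkopf, 3R, 10122365 to 10125664, minus strand) encodes an apical protein that protects and orders new chitin. It was at 15.9, 16.4 and 13.3 CPM in DNMT3L libraries and at 22.7, 20.8 and 20.6 CPM in control libraries, with no overlap and a log2 fold change of −0.49 ± 0.17 (SE). An antisense RNA, asRNA:CR46038, covers 1712 of the 2674 exonic bases of knk on the other strand and had at most 3 counts in any library. The sources used here do not give the strand setting of the counting, so reads of these 2 genes cannot be told apart and the level of knk is uncertain.

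All 8 genes had a negative log2 fold change, with a median of −0.64, and in 7 of 8 the DNMT3L libraries were lower than each control library. Over all 9495 genes tested, 4962 (52.3%) had a negative log2 fold change, the median was −0.03, and the groups were separate with DNMT3L lower in 1339 (14.1%). Since verm, serp, Gasp and pio were chosen for their direction, nothing is read from these counts. Within the DNMT3L group, library 3 was the lowest for 7 of 8 genes and library 2 the highest for 7 of 8. Within the control group, library 1 was the highest for 6 genes and the lowest for pio and obst-A.

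**Figure D3:**
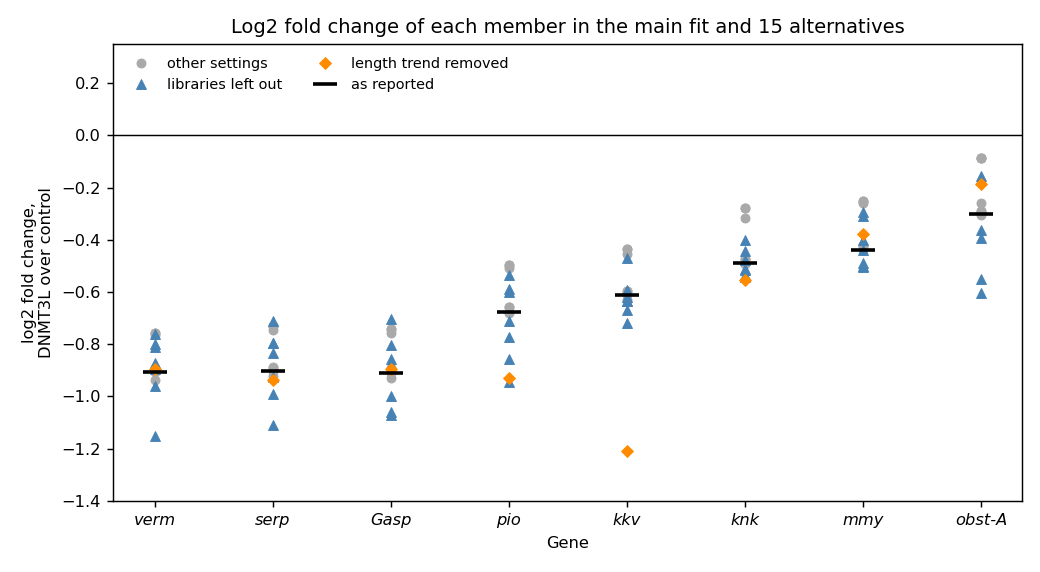
Log2 fold change, DNMT3L over control (y axis), of each of the 8 genes (x axis) as reported (black bar) and under 15 alternatives, with libraries left out as blue triangles and the length trend removed as an orange diamond. Every value is below 0, and the value of kkv without the length trend, −1.21, lies farthest from the one reported.

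Genes that act with these 8 were grouped into 8 lists, which hold 81 other genes, 69 of them tested. edgeR's quasi-likelihood test with Benjamini-Hochberg adjustment over all 9495 genes called 0 of the 69, and 0 (0.0%) of all genes. At an unadjusted p under 0.05, 16 of the 69 were lower (8.79% of all genes) and 1 was higher (6.23% of all genes). DESeq2 called 3 of them, all lower. It called 2.57% of the 10377 genes with a DESeq2 adjusted p, 1.66% as lower and 0.915% as higher. Every DESeq2 share of all genes in this text has this base. By limma on log2(FPKM + 1), 0.0863% of 13904 genes were called. The median log2 fold change of the 69 was −0.26, and 53 were negative. In 18 the groups were separate with DNMT3L lower, and in 3 with DNMT3L higher, where all genes gave 14.1% and 14.0%.

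Among 9 tested genes of precursor supply and chitin synthesis beside mmy and kkv, 4 were lower at an unadjusted p under 0.05 by edgeR. All genes gave 8.79%, and 0 of the 9 were higher (6.23% of all genes). Of the 9, 8 had negative log2 fold changes, the median was −0.27 and edgeR called none. The most abundant was Pgi, the glycolytic isomerase before the branch point, at 178 ± 62.1 FPKM in DNMT3L and 187 ± 31.9 FPKM in control brains. Gfat2, an amidotransferase that starts the hexosamine route, was at 36.9 ± 1.87 FPKM in DNMT3L and 39.6 ± 5.16 FPKM in control brains, and nst, a mutase of the same route, at 34.1 ± 3.30 FPKM in DNMT3L and 40.0 ± 2.11 FPKM in control brains. Gfat1, the paralogue of Gfat2, was at 22.0, 28.7 and 21.0 FPKM in DNMT3L libraries and at 32.4, 35.3 and 37.1 FPKM in control libraries, and its log2 fold change was −0.72 ± 0.17 (edgeR adjusted p = 0.299, DESeq2 adjusted p = 0.0303). The groups were separate for Gfat1. The gene exp (expansion), which the embryo needs together with its relative reb (rebuff) for chitin deposition in tracheae, was at 1.16, 1.69 and 1.68 FPKM in DNMT3L libraries and at 3.37, 2.38 and 3.44 FPKM in control libraries. Its log2 fold change was −1.21 ± 0.28 (edgeR adjusted p = 0.297, DESeq2 adjusted p = 0.0117). The level of reb was lower still, at 0.18, 0.18 and 0.12 FPKM in DNMT3L libraries and at 0.56, 0.37 and 0.79 FPKM in control libraries, and its log2 fold change was −2.02 ± 0.46 (edgeR adjusted p = 0.29, DESeq2 adjusted p = 0.0636). Gfat1, exp and reb were picked for naming once their values were known.

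The other deacetylase genes tested had log2 fold changes of both signs. Cda4 was at 25.2, 55.9 and 36.8 FPKM in DNMT3L libraries and at 44.6, 53.5 and 49.3 FPKM in control libraries. Those groups overlapped, as DNMT3L 2 was the highest library (log2 fold change −0.49 ± 0.28, edgeR adjusted p = 0.356). Cda5 was low, at 1.36, 0.83 and 0.76 FPKM in DNMT3L libraries and at 0.14, 0.45 and 0.43 FPKM in control libraries, and its log2 fold change of 1.39 ± 0.45 was positive (edgeR adjusted p = 0.332). The difference between these log2 fold changes and those of verm and serp was not tested. None of these values was corrected for the trend on gene length. In the protection list the 1 other gene, rtv (retroactive), which acts with knk in chitin fibre order, was at 13.7 ± 3.31 FPKM in DNMT3L and 19.1 ± 2.19 FPKM in control brains (log2 fold change −0.67 ± 0.25, edgeR adjusted p = 0.332).

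The Obstructor family held genes with reads in each library and genes that were high in 1. Beside Gasp and obst-A, obst-B was at 30.9, 59.9 and 36.6 FPKM in DNMT3L libraries and at 90.7, 50.7 and 69.6 FPKM in control libraries (log2 fold change −0.93 ± 0.36, edgeR adjusted p = 0.332). The groups overlapped there. In contrast obst-F was listed at 0 in each DNMT3L library, and it was at 0.10, 0.36 and 127.7 FPKM in control libraries 1 to 3. Control 3 also held obst-J at 112.9 FPKM, obst-H at 45.5 FPKM, obst-G at 37.7 FPKM and the deacetylase gene Cda9 at 79.4 FPKM, none of which exceeded 0.40 FPKM in another library. CS-2, the gene of the other chitin synthase, known from the gut lining, was at most at 0.01 FPKM in DNMT3L libraries and at 0.02, 0.01 and 1.92 FPKM in control libraries. These 6 genes were removed by the low-count filter and have no test, and obst-G, obst-H and CS-2 were picked for naming once their values were known.

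**Figure D4:**
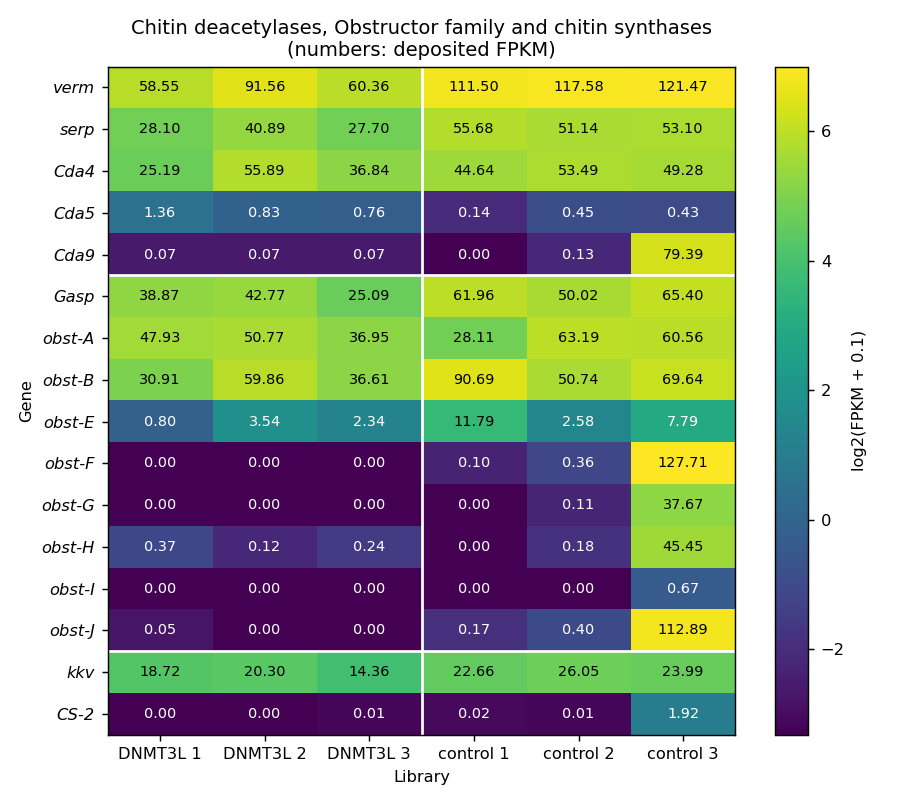
Deposited FPKM (printed numbers; colour on a log2(FPKM + 0.1) scale) of chitin deacetylases (top block), Obstructor genes (middle block) and chitin synthases (bottom block) in each library. Cda9, obst-F, obst-G, obst-H and obst-J exceed 10 FPKM in control 3 only, and CS-2 is at 1.92 FPKM there, whereas verm, serp, Gasp and kkv in control 3 are close to the other controls.

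Over the whole table, genes with at least 10 FPKM in 1 library and under 1 FPKM in each of the other 5 numbered 1 for DNMT3L 3, 35 for control 3 and 0 for each of the other libraries. Of the 35 in control 3, 19 (54.3%) carry the term chitin binding in the deposited annotation, a term held by 93 (0.524%) of all genes. Without control 3 the log2 fold changes were −0.90 for verm, −0.93 for serp, −0.86 for Gasp, −0.71 for pio, −0.63 for kkv, −0.52 for knk, −0.50 for mmy and −0.16 for obst-A, the last against −0.30 with that library. The 4 genes of the set that carry the chitin binding term themselves are verm, serp, Gasp and obst-A. Outside the set, 89 genes carry that term or chitin metabolic process. Of the 30 that were tested, 22 had negative and 8 positive log2 fold changes (median −0.47). Over all genes tested, 52.3% were negative and the median was −0.03. This grouping by annotation was made after the data were seen and has no test.

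Chitinases and chitinase-like factors, which degrade or bind chitin, had 15 tested genes, 14 with negative log2 fold changes and a median of −0.54. edgeR called none of them. At an unadjusted p under 0.05 by edgeR, 4 were lower (8.79% of all genes) and 0 were higher (6.23% of all genes). The chitinase gene Cht2 was at 51.3 ± 7.62 FPKM in DNMT3L and 73.2 ± 7.41 FPKM in control brains (edgeR adjusted p = 0.323). Idgf4, a chitinase-like growth factor without catalytic activity, was at 390 ± 125 FPKM in DNMT3L and 503 ± 65.2 FPKM in control brains, and Idgf6 at 106 ± 32.8 FPKM in DNMT3L and 183 ± 67.6 FPKM in control brains. DESeq2 called 1 gene of this list, the hexosaminidase gene Hexo1 (log2 fold change −0.54 ± 0.14, DESeq2 adjusted p = 0.0495, edgeR adjusted p = 0.315), picked for naming once its value was known. Cht12 had no read in any library.

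Zona pellucida relatives of pio were spread about 0. Of 12 tested genes 8 were negative, the median log2 fold change was −0.16, and edgeR called none, with 0 at an unadjusted p under 0.05 and 0 called by DESeq2. The most abundant were qsm at 30.2 ± 9.06 FPKM in DNMT3L and 39.7 ± 7.81 FPKM in control brains, pot at 23.5 ± 2.55 FPKM in DNMT3L and 23.4 ± 8.15 FPKM in control brains, and neo at 12.6 ± 2.02 FPKM in DNMT3L and 12.9 ± 5.78 FPKM in control brains. Genes of the apical membrane and of matrix secretion had a median log2 fold change of −0.10 over 12 genes, none at an unadjusted p under 0.05 by edgeR and none called by DESeq2. Among them the secretory GTPase genes Sar1 and Rab11 were at 128 ± 8.55 and 214 ± 30.6 FPKM in DNMT3L and at 122 ± 6.23 and 203 ± 28.4 FPKM in control brains. Sec23, a coat protein gene of secretory vesicles, was at 82.5 ± 0.612 FPKM in DNMT3L and 85.3 ± 11 FPKM in control brains.

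Septate junction genes, which seal tracheal epithelia and surface glia and are needed for secretion of Verm and Serp in the embryo, had 10 of 16 negative log2 fold changes with a median of −0.16. edgeR called none of them and DESeq2 called none. At an unadjusted p under 0.05 by edgeR, 5 were lower (8.79% of all genes) and 0 were higher (6.23% of all genes). The 5 were kune, pck, vari, crok and cold, picked for naming once their values were known. Atpalpha, the sodium pump subunit, was at 153 ± 30.3 FPKM in DNMT3L and 87.2 ± 37.9 FPKM in control brains. Lac was at 153 ± 37.8 FPKM in DNMT3L and 123 ± 42.8 FPKM in control brains, and bou at 83.0 ± 15.6 FPKM in DNMT3L and 92.9 ± 20.8 FPKM in control brains.

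**Figure D5:**
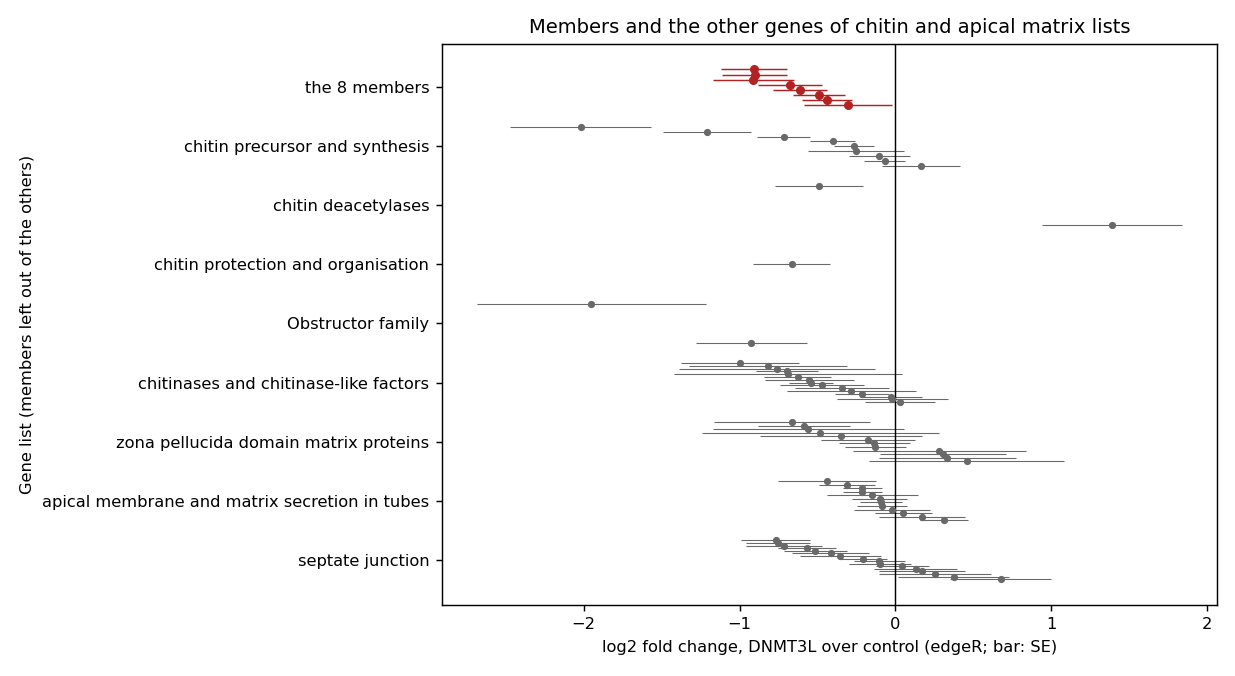
Log2 fold change, DNMT3L over control, with its SE (x axis) for the 8 genes (red) and for the other tested genes of each list (grey; y axis, 1 row per list). The chitin synthesis and chitinase rows lie mostly below 0, and the zona pellucida, secretion and septate junction rows lie on both sides of 0.

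Taken singly, each marker of tracheal identity was at a lower FPKM than verm, though their sum was above verm in each DNMT3L library. The list of tracheal transcription factors and branching genes summed to 124 to 163 FPKM over 23 genes in DNMT3L libraries and 60.6 to 135 FPKM in control libraries, its most abundant genes being tgo at 38.8 ± 5.65 FPKM in DNMT3L and 26.5 ± 9.52 FPKM in control brains, and esg at 20.4 ± 0.372 FPKM in DNMT3L and 14.1 ± 2.89 FPKM in control brains, both of which act in other cells too. The defining factor trh was at 5.52, 4.10 and 4.14 FPKM in DNMT3L libraries and at 1.25, 4.47 and 3.09 FPKM in control libraries. The tracheal FGF receptor gene btl was at 0.67, 0.93 and 0.58 FPKM in DNMT3L libraries and at 0.56, 1.07 and 0.91 FPKM in control libraries. Both overlapped between groups. Of 16 tested genes of this list 8 were negative, the median log2 fold change was 0.07 and edgeR called none. At an unadjusted p under 0.05 by edgeR, 1 was lower (8.79% of all genes) and 1 was higher (6.23% of all genes). DESeq2 called Osi14, at 0, 0.10 and 0.10 FPKM in DNMT3L libraries and at 0.86, 0.55 and 1.40 FPKM in control libraries (DESeq2 adjusted p = 0.0126, edgeR adjusted p = 0.29), picked for naming once its value was known. None of the 23 was without reads in all libraries.

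Markers of other cuticle-bearing or attached tissues were summed per library, and their part in the values above was not tested. edgeR called 0 genes in each of these lists. DESeq2 called 3 larval cuticle, 2 muscle, 2 hemocyte and 1 fat body gene as lower (1.66% of all genes). It called 1 fat body gene as higher (0.915% of all genes) and 0 in the other lists. Median log2 fold changes were −1.23 for muscle, −1.22 for hemocyte, −0.97 for fat body, −0.76 for ring gland and −0.22 for surface glia. They were 1.51 for salivary gland, 0.26 for imaginal disc, 0.17 for general glial and 0.02 for tanning genes. The summed levels, not corrected for the length trend, were separate between groups for muscle and fat body and overlapped for the others. The 22 larval cuticle genes summed to 110, 446 and 320 FPKM in DNMT3L libraries 1 to 3 and to 1157, 378 and 609 FPKM in control libraries 1 to 3, with 11 of 12 tested genes negative, a median log2 fold change of −1.30 and Ccp84Ae without reads. For this sum DNMT3L 2 was the highest and DNMT3L 1 the lowest of their group, and control 1 was the highest control. DNMT3L 2 was also the highest of its group for the muscle, ring gland, surface glia and general glial sums. It was not the highest for the fat body, hemocyte, salivary gland, imaginal disc and tanning sums. Muscle genes summed to 61.7 to 197 FPKM in DNMT3L and 220.8 to 392.3 FPKM in control libraries (13 genes), fat body genes to 237 to 354 FPKM in DNMT3L and 415 to 638 FPKM in control libraries (9 genes), and hemocyte genes to 63.5 to 87.4 FPKM in DNMT3L and 81.1 to 257 FPKM in control libraries (9 genes). Of 12 tested muscle genes 9 were negative. The log2 fold changes of bt, sls and Mef2 were positive, at 0.51, 0.39 and 0.39. They were picked for naming once their values were known. Of 8 tested fat body genes 6 were negative. In 3 the groups were separate with DNMT3L lower and in 2 with DNMT3L higher, where all genes gave 14.1% and 14.0%. Those 2 were Fbp2 (log2 fold change 4.45) and apolpp (log2 fold change 0.82), both picked for naming once their values were known. Ring gland genes summed to 252, 530 and 297 FPKM in DNMT3L libraries and to 544, 475 and 547 FPKM in control libraries (7 genes). Salivary gland genes ran the other way, at 59.0 to 379 FPKM in DNMT3L and 32.1 to 89.7 FPKM in control libraries (8 genes). Surface glia (189 to 260 FPKM in DNMT3L, 253 to 286 FPKM in control), imaginal disc (205 to 286 FPKM in DNMT3L, 121 to 226 FPKM in control), tanning (28.0 to 47.3 FPKM in DNMT3L, 21.3 to 32.5 FPKM in control) and general glial genes (8329 to 11680 FPKM in DNMT3L, 8942 to 12980 FPKM in control) had ranges that overlapped.

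Across the 6 libraries, the profile most like the mean standardised log2 level of verm, serp, Gasp and pio, among 7145 genes with a mean of at least 10 CPM, was that of CG11961 (Pearson r = 0.996), followed by CG6287 (r = 0.994), the serpin gene Spn77Ba (r = 0.992), CG1806 (r = 0.989) and CG3649 (r = 0.988). These r describe 6 points that fall into 2 groups. Spn77Ba was at 24.5, 28.8 and 22.3 CPM in DNMT3L libraries and at 44.4, 40.4 and 40.2 CPM in control libraries. For kkv, knk, mmy and obst-A the closest were rols (r = 0.991), frj (r = 0.990), CG11961 (r = 0.983), CG6287 (r = 0.982) and the O-mannosyltransferase gene tw (r = 0.972). CG11961 and CG6287 were thus among the 5 closest for both groups of 4, and CG6287 was at 145, 154 and 128 CPM in DNMT3L libraries and at 196, 186 and 183 CPM in control libraries.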

How the data were processed

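Read counts per gene for 6 libraries were deposited by the authors as whole numbers, beside FPKM values, exonic sizes and coordinates, per the file headers. Per the submitters' processing notes, tools included HISAT2 2.0.1, cutadapt 1.9.1, DESeq2, HTSeq 0.6.1 and bcl2fastq 2.17.1.14, and builds were BDGP6 and dm6. The sources used here do not give their roles or the strand setting. The deposited FPKM could be recomputed from counts, exonic size and library total (100.0% of values, within rounding). Coordinates of the 8 genes were identical in the Ensembl release 115 annotation. Counts were fitted with edgeR 4.0.16 in R 4.3.3 (filterByExpr, 9495 genes kept and 8242 removed; TMM; glmQLFit, glmQLFTest; two-sided; Benjamini-Hochberg threshold 0.05). SEs follow from the F statistic. Alternatives used DESeq2 1.42.0 and limma 3.58.1. Replicate libraries in a group differed far beyond counting error. Members, lists, the length correction (loess, span 0.5) and the joint removal of both libraries numbered 1 were chosen with earlier results of these data known. All 8 members were named, then in each pathway list the 3 other genes with the highest mean FPKM and in each marker list up to 2, with exceptions stated; not every gene named by this rule is reported. Of 236 list entries, 2 matched no gene. No sequence was analysed here.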

Additional observations from a re-analysis of the deposited data

How the results depend on the processing

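Across the 15 alternatives each of the 8 genes kept a negative log2 fold change. Their median was −0.64, and with 1 library left out it ran from −0.74 to −0.53. It was −0.90 with the length trend removed and −0.47 by limma on log2(FPKM + 1), a scale without TMM on which the median of all genes was 0.05, or 0.12 with a pseudocount of 0.1. There the log2 fold changes of knk, mmy and obst-A were −0.28, −0.25 and −0.09. edgeR called 0 genes, also with each library left out (0 to 0). The count was 2 with DESeq2 size factors, 6 without the low-count filter, 267 by DESeq2, 12 by limma on log2(FPKM + 1), 8 with a pseudocount of 0.1, 10 with a mean FPKM of at least 1, 16 without both libraries numbered 1 and 13 with the length trend removed. Of the companion genes DESeq2 called 3 and edgeR 0. The cause of these differences was not tested. Replicate numbers are not stated to pair the libraries, and a check on this could not decide it. Same-numbered libraries had correlations of deviations from group means of −0.72, −0.58 and −0.21, and no library correlated best with its own number. These deviations are tied to each other within groups of 3. DNMT3L 1 and control 1 also deviated in opposite directions with gene length, so pairing is not excluded. With the replicate number as a block edgeR called 0 genes, the median of the 8 was −0.65 and 8 were negative. With 3 libraries a group, the common biological coefficient of variation was 31.5%. The log2 fold change of obst-A, −0.30 ± 0.28 (SE), was close to its SE, and its groups overlapped. The 8 genes were in the edgeR fit of 9495 genes, of which 0 were called. No p-value is given for them, as the set was chosen on this comparison. The differences of the other members are therefore not told apart from the spread here either.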
